A study of Mus musculus with 16 samples.

Results

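The collagen genes encode the chains of a family of triple-helical matrix proteins. In mouse neural crest cells, 37 collagen chain genes were followed on 16 Affymetrix arrays, out of 18194 genes measured. The 37 were taken from a list of chain names. Each is represented by the probe set with a single gene symbol that had the highest mean log2 intensity over all arrays. They comprise 11 fibrillar chains, 6 type IV chains and 20 others. Neural crest stem cells are migratory, multipotent embryonic cells. They were compared as cells primed towards glia (arrays titled Glia), towards neurons (titled Autonomic) or towards mesenchyme (titled Mesenchymal), and as cells that were not primed (titled NCSCs), with 4 arrays in each group. All groups were primary mouse cells grown in a neural crest stem cell medium. The treatment note is the same for every array, NCSCs included, and speaks only of growth factors that instruct the cells, which the sources used here do not name. Strain, embryonic age, genotype, length of exposure and any pooling of embryos were likewise not given. Nor do the labels state whether the 4 replicates of a group are different cultures or embryos. The p-values therefore speak of the spread among these arrays alone, some of which may be technical.

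Fibrillar collagens, such as types I, II and III, assemble into the tensile fibrils of skin, bone and cartilage, and each is made as a procollagen whose ends are trimmed outside the cell. Type IV chains form the flexible network of basement membranes. FACIT collagens sit on the surface of fibrils, type VI forms beaded filaments, type VII anchors epithelium, types VIII and X form short-chain networks, multiplexins lie near basement membranes, and a further class spans the cell membrane. Neural crest cells migrate through matrix that holds several of these collagens, and their mesenchymal descendants in the head make cartilage, bone and dermis rich in types I and II.

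The upstream sequence of 2 members that passed the test is shown, because the RefSeq table holds them: Col1a2, called higher in glia-primed cells, and Col18a1, called higher in neuron-primed cells. Each window is the 250 bases before an annotated transcript start in GRCm38.p6. Capitals mark the CCAAT box, the GC box with the letters GGGCGG, and CAGACA, which holds the core bound by SMAD proteins, on either strand. No window below holds TATAAA, the fourth motif searched.
Col1a2, chr6:4505368-4505617, plus strand: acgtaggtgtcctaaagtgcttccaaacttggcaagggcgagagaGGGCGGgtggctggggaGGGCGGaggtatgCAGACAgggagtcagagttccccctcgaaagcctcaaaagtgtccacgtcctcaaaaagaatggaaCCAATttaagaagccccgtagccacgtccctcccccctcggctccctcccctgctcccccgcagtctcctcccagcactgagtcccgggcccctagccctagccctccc
Col18a1, first start, chr10:77166531-77166780, minus strand: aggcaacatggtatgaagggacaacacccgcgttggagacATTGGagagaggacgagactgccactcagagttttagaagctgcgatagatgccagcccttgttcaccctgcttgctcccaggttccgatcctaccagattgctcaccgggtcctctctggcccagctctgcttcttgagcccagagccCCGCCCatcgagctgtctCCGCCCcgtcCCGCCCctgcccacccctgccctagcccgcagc
Col18a1, internal start, chr10:77113706-77113955, minus strand: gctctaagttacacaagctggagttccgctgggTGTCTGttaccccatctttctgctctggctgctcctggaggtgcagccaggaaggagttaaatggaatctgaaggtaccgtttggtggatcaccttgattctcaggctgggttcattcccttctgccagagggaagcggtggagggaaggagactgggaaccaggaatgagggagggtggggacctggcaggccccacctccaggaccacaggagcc
The Col1a2 window held CCAAT 109 bases, CAGACA 175 bases, and GGGCGG 188 and 205 bases before the start. The first Col18a1 window held GC boxes on the opposite strand 33, 43 and 61 bases before the start. These motifs do not overlap each other in the windows shown. Over all 32851 RefSeq windows of this length, 33.8% held CCAAT, 32.7% held GGGCGG, 17.1% held CAGACA and 12.4% held TATAAA. Of the 37 collagen genes, 30 had a window, and 12, 18, 7 and 5 of these held the 4 motifs in that order. Counted by window, the unit of the shares above, 12, 19, 7 and 5 of the 33 collagen windows held them. A match describes letters only.

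Intensities are given as log2 of the authors' values, and a difference of 1 on this scale is a 2-fold change. Levels of different probe sets cannot be ranked against each other, so each gene is compared with itself across arrays. The median over all probe sets of an array lay between 3.05 and 3.15. Above it on all 16 arrays were 12 collagens, and below it on all 16 were 4 (Col24a1, Col4a3, Col6a3 and Col8a2). Each collagen stands by its probe set of highest mean, so the median over genes chosen the same way is the closer reference. That median lay between 3.80 and 3.88. Only Col1a2, Col2a1, Col5a1, Col18a1, Col25a1 and Col27a1 lay above it on all 16 arrays. Besides the 4 named, Col4a4, Col9a2, Col10a1, Col12a1, Col14a1, Col15a1, Col17a1 and Col19a1 were above it on no array. Shares of all genes on either side were not counted. Signal over background was not measured, so changes over a dim baseline are rough in size. In a mixed population, fewer cells of a type and less RNA per cell cannot be told apart.

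A few arrays stood apart in ways that touch these genes. NCSCs replicate 3 and Mesenchymal replicate 3 were each the highest array of their group for 20 of the 37 collagens (54.1%), against 24.3% and 26.5% of all genes. Autonomic replicate 1 was the lowest of its group for 18 of 37, against 29.6% of all genes. The crest markers measured (8 of 10) had a mean of 5.49 on that array, against 6.85 to 7.25 on the other neuron-primed arrays, with Sox10 at 4.30. Sox10, Foxd3, Tfap2a, Ngfr, Erbb3, Ets1 and Snai2 were each lowest of their group there. Fabp7 went the other way, at 10.45 against 5.62 to 7.42 on the other neuron-primed arrays. Crest markers averaged 7.01 to 7.45 in glia-primed, 7.23 to 7.92 in mesenchyme-primed and 6.72 to 7.77 in unprimed arrays. Against unprimed cells, limma called 1 of the 8 lower in glia- and 1 lower in neuron-primed cells. Ngfr had the largest fall in both (-1.87 and -2.75). It was 6.27 to 7.74 in glia- and 5.57 to 7.22 in neuron-primed arrays, against 8.32 to 9.39 in unprimed ones. An RNA quality control, the 3′ to 5′ log2 ratio of Gapdh, was 2.44 to 3.33 in glia-, 2.53 to 3.10 in neuron- and 2.66 to 3.13 in mesenchyme-primed arrays, against 2.20 to 2.58 in unprimed ones. The same ratio of beta-actin was -0.24 to -0.07 in glia- and -0.92 to -0.29 in neuron-primed arrays. It was -0.40 to -0.08 in mesenchyme-primed and -0.70 to -0.39 in unprimed arrays. In that control only the glia-primed arrays all lay above the unprimed range. Xist, made from an inactive X chromosome, was 2.61 to 5.34 in glia-, 3.15 to 10.58 in neuron- and 2.68 to 11.22 in mesenchyme-primed arrays, against 6.39 to 10.52 in unprimed ones.

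The fibrillar chains of types I and II were higher on average in each primed group, but none passed in mesenchyme-primed cells. Col2a1 passed the test in glia- and neuron-primed cells and Col1a2 in glia-primed cells, each at about 4 to 5 times the unprimed level. Col1a1 had the largest difference of any collagen in each comparison with unprimed cells, but its arrays were too scattered to pass. Outside the fibrillar class Col18a1 passed in neuron-primed cells. Each of these calls was lost when certain single arrays were left out. No collagen was called lower in any comparison, but few genes were called at all, so this shows no direction for the family.

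Col2a1 encodes the chain of type II collagen, the main collagen of cartilage, which is also made in the early embryo outside cartilage. It measured 10.65, 9.88, 11.08 and 9.60 on glia-primed arrays, 9.84, 10.77, 10.84 and 11.10 on neuron-primed arrays and 11.41, 10.27, 9.89 and 10.54 on mesenchyme-primed arrays, against 8.60, 8.13, 7.56 and 8.53 on unprimed arrays. All 12 primed arrays lay above all 4 unprimed ones. The log2 change was 2.10 in glia-primed cells (SE 0.40, 4.29-fold, limma adjusted p = 0.0342) and 2.43 in neuron-primed cells (SE 0.40, 5.4-fold, limma adjusted p = 0.0149). In mesenchyme-primed cells it was 2.32 (SE 0.40) and did not pass (limma adjusted p = 0.0822). The mean of the 3 primed groups was higher by 2.29 (SE 0.33, limma adjusted p = 0.00775). Its differences between primed groups were -0.33, -0.22 and 0.11 (SE 0.40 each), with adjusted p of at least 0.955. Only 1 probe set measured Col2a1. The call in glia-primed cells was lost on leaving out any of 8 single arrays, NCSCs replicates 1 to 4, Glia replicates 1 to 3 or Mesenchymal replicate 4 (adjusted p up to 0.0955). It was also lost with only the groups compared in the fit (limma adjusted p = 0.0714) and with the Xist level as covariate (limma adjusted p = 0.0941). That in neuron-primed cells was lost without Autonomic replicate 3 or 4 (adjusted p up to 0.0576) and with only the groups compared (limma adjusted p = 0.0515).

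Col1a2 encodes the second chain of type I collagen, the fibril of bone, tendon and dermis. It measured 10.47, 11.25, 10.78 and 10.42 on glia-primed arrays, 8.99, 10.66, 10.26 and 10.22 on neuron-primed arrays and 10.44, 10.34, 11.45 and 10.30 on mesenchyme-primed arrays, against 8.39, 8.86, 9.36 and 8.10 on unprimed arrays. Glia- and mesenchyme-primed arrays all lay above the unprimed ones, and of the neuron-primed arrays replicate 1 lay among them. The log2 change was 2.05 in glia-primed cells (SE 0.38, 4.14-fold, limma adjusted p = 0.0335). It was 1.96 in mesenchyme-primed cells (limma adjusted p = 0.113) and 1.35 in neuron-primed cells (limma adjusted p = 0.179), with the same SE, and neither passed. Without Autonomic replicate 1 the neuron-primed change was 1.70 and passed (limma adjusted p = 0.0276). Replicate 1 was the lowest neuron-primed array for this gene, so that p-value is too small. The mean of the primed groups was higher by 1.79 (SE 0.31, limma adjusted p = 0.0286). The second probe set for Col1a2 gave changes of 2.12, 1.12 and 1.75 in glia-, neuron- and mesenchyme-primed cells, and another, dim one gave 1.25, 0.26 and 0.35. The glia-primed call was lost on leaving out any of 7 single arrays, NCSCs replicate 1, 2 or 4 or any Glia replicate (adjusted p up to 0.107).

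Col1a1 encodes the other chain of type I collagen, which joins the Col1a2 product in the same triple helix. It measured 9.33, 7.68, 9.05 and 8.61 on glia-primed arrays, 7.21, 10.25, 9.69 and 9.25 on neuron-primed arrays and 6.91, 6.66, 11.56 and 7.16 on mesenchyme-primed arrays, against 4.47, 3.57, 7.62 and 3.72 on unprimed arrays. Apart from NCSCs replicate 3, every unprimed array lay below every primed one. That array and Mesenchymal replicate 3 were the high ones of their groups, and the SDs were 2.34 in mesenchyme-primed and 1.89 in unprimed cells. The log2 change was 3.83 in glia-primed (SE 1.09, limma adjusted p = 0.183), 4.25 in neuron-primed (limma adjusted p = 0.13) and 3.23 in mesenchyme-primed cells (limma adjusted p = 0.506). A second probe set gave 3.03, 3.83 and 2.00. With both of those arrays left out, a choice made after their high values were seen, the changes were 4.75 in glia-primed (limma adjusted p = 0.00564), 5.18 in neuron-primed (limma adjusted p = 0.00487) and 2.99 in mesenchyme-primed cells (limma adjusted p = 0.251). Since the arrays were chosen for values of this kind, those p-values are too small. Leaving out Mesenchymal replicate 3 alone gave an adjusted p of 0.0426 in neuron-primed cells, and the same limit holds for it.

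**Figure D1:**
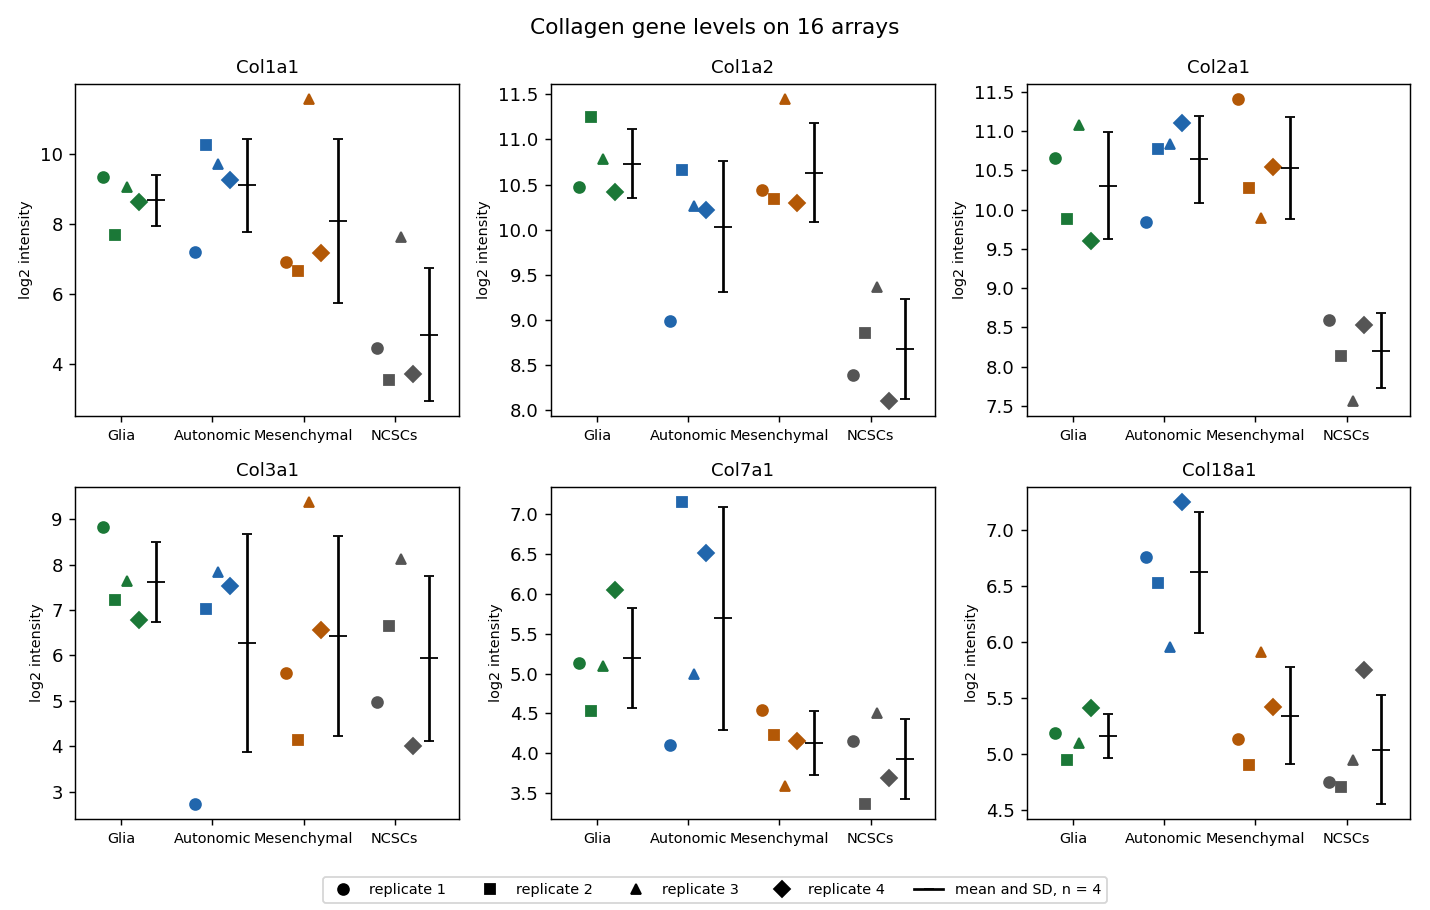
Log2 intensity (vertical axes, each with its own range and not starting at 0) of 6 collagen genes on each array, by group, with the mean and SD of 4 arrays at the right of each group. Col2a1 lay at 9.60 or above on every primed array and at 8.60 or below on every unprimed one, while Col1a1 and Col3a1 were highest in their groups on Mesenchymal replicate 3 and NCSCs replicate 3.

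The other fibrillar chains did not pass in any comparison. Col3a1, the type III chain of vessels and soft tissue, measured 8.82, 7.21, 7.64 and 6.78 on glia-primed arrays, against 4.97, 6.64, 8.12 and 4.02 on unprimed ones. These groups overlap, because NCSCs replicate 3 was higher than 3 of the glia-primed arrays (log2 change 1.68, SE 1.24, limma adjusted p = 0.726). Neuron-primed arrays spanned 2.73, on replicate 1, to 7.84, and mesenchyme-primed arrays spanned 4.14 to 9.38, on replicate 3. Col5a2, a type V chain that limits fibril diameter, measured 5.56, 7.18, 5.23 and 6.50 on glia-primed arrays, against 3.94, 4.19, 5.38 and 4.45 on unprimed ones. Only Glia replicate 3 fell within the unprimed range (log2 change 1.63, SE 0.59, limma adjusted p = 0.336), and a second probe set gave 2.72. Col27a1, a fibrillar chain of cartilage, measured 5.11, 5.51, 6.52 and 6.82 on neuron-primed arrays, against 5.07, 4.91, 4.97 and 4.71 on unprimed arrays (log2 change 1.07, limma adjusted p = 0.465). Mesenchyme-primed arrays measured 6.38, 6.34, 6.60 and 4.88 (log2 change 1.14, limma adjusted p = 0.588), and glia-primed cells differed from unprimed ones by 0.06. Its second, dimmer probe set gave 0.11 and 0.58 in neuron- and mesenchyme-primed cells. Col5a1 differed by 0.38, 0.91 and 0.40 in glia-, neuron- and mesenchyme-primed cells, and other probe sets gave 0.11, 0.50 and -0.14, and 0.97, 0.68 and 0.88. Col11a1, a partner of type II in cartilage fibrils, was between 2.91 and 4.55 on all arrays except Mesenchymal replicate 3, where it was 6.19. The remaining chains, Col5a3, Col11a2 and Col24a1, differed by at most 0.67 in size.

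Over the 11 fibrillar genes, changes were positive for 8 in glia-, 9 in neuron- and 10 in mesenchyme-primed cells, against 49.2%, 50.5% and 49.2% of all genes. Their median log2 changes were 0.38, 0.34 and 0.49, and those of all genes were -0.006, 0.004 and -0.006. Mean fibrillar levels were 5.75 to 6.13 on glia-, 5.22 to 6.21 on neuron- and 5.34 to 6.93 on mesenchyme-primed arrays, against 4.49 to 5.67 on unprimed arrays. Glia-primed arrays did not overlap unprimed ones in this mean, and the other groups overlapped only through NCSCs replicate 3. The Gapdh ratio was also higher on most primed arrays, and with it as a covariate, a fit added after the data were seen, no collagen passed in any comparison. The Col2a1 change was then 2.11 and the Col1a2 change 1.87 in glia-primed cells (limma adjusted p = 0.183 and 0.209). Without the covariate these changes were 2.10 and 2.05. Of the primed arrays, only Glia replicate 4 and Autonomic replicate 4 had a ratio within the unprimed range. This fit therefore cannot tell the ratio and priming apart.

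**Figure D2:**
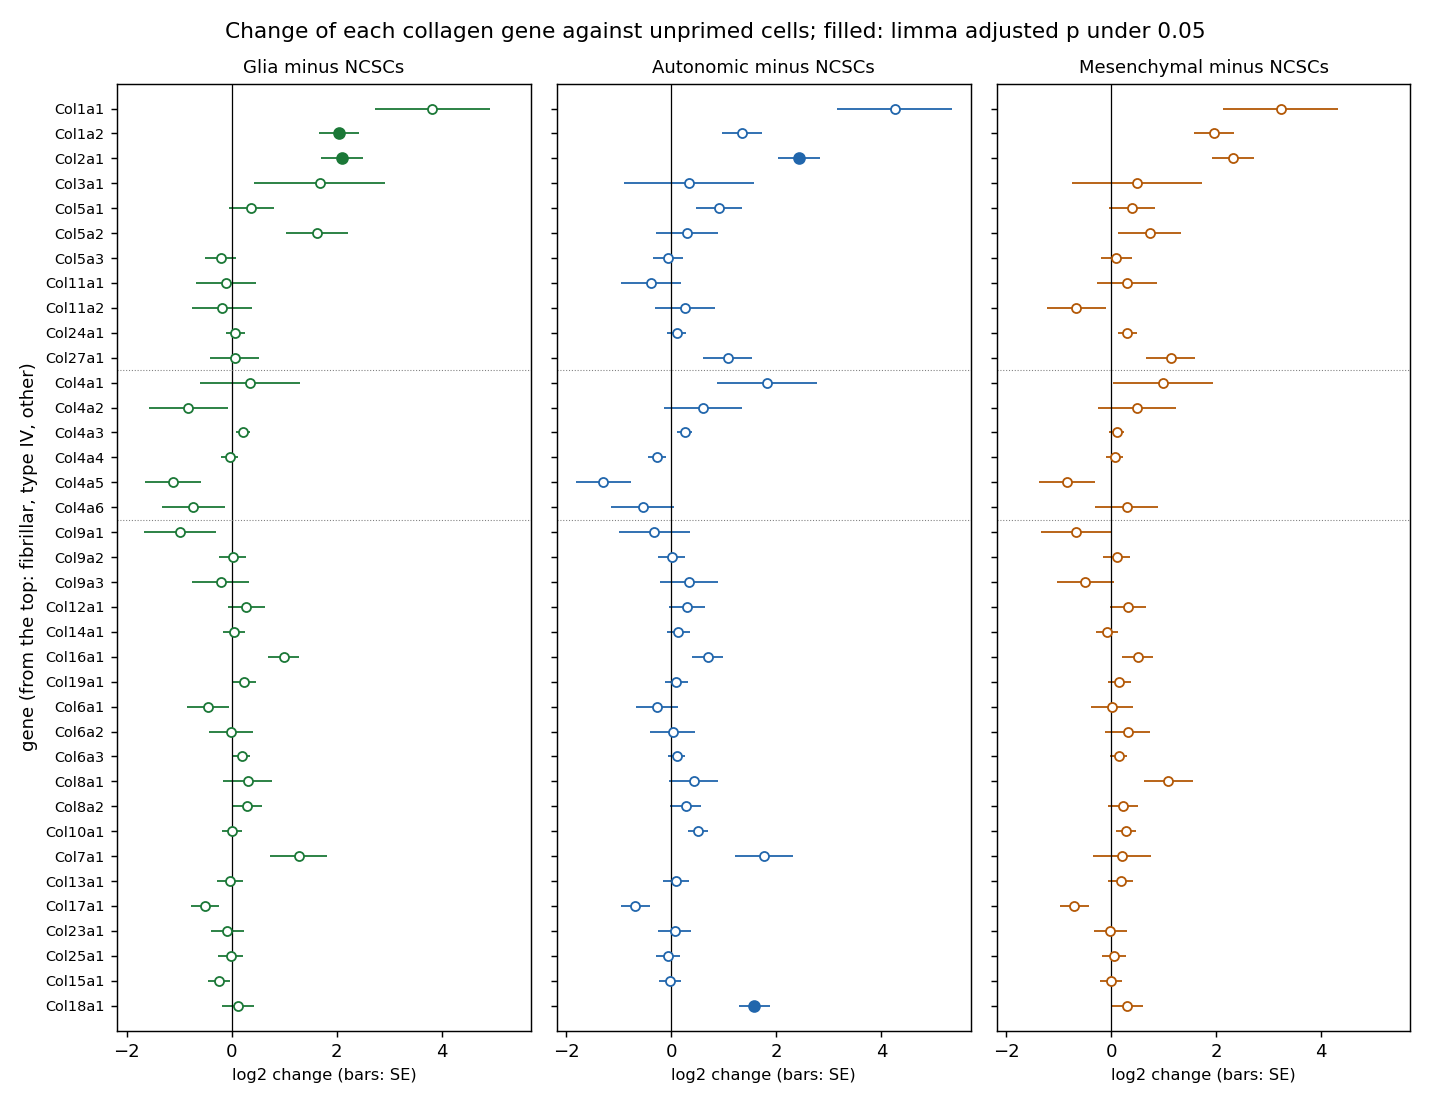
Log2 change (horizontal axes) of all 37 collagen genes in glia-, neuron- and mesenchyme-primed cells, each minus unprimed cells, with SE bars, and filled points for limma adjusted p under 0.05. The filled points are Col1a2 and Col2a1 in glia-primed and Col2a1 and Col18a1 in neuron-primed cells, and the points farthest right are those of Col1a1.

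None of the 6 type IV chains passed in a comparison. Their genes lie in head-to-head pairs, and in the RefSeq table the starts of Col4a1 and Col4a2, the chains of most basement membranes, are 21 bases apart on opposite strands. Col4a1 measured 7.96, 7.42, 6.25 and 8.28 on neuron-primed arrays, against 3.33, 4.43, 8.21 and 6.66 on unprimed arrays (log2 change 1.82, SE 0.95, limma adjusted p = 0.576). Col4a2 measured 5.52, 6.46, 3.52 and 5.99 on neuron-primed arrays, against 4.36, 3.62, 7.03 and 4.06 on unprimed arrays (log2 change 0.60, SE 0.75, limma adjusted p = 0.869). In both genes replicate 3 was the lowest neuron-primed array and the highest unprimed one. Their glia-primed changes were 0.35 and -0.82, and their mesenchyme-primed changes 0.99 and 0.49. A second, dimmer Col4a1 probe set gave 0.02, 1.12 and -0.20 in glia-, neuron- and mesenchyme-primed cells.

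Col4a5, an X-linked chain of kidney and smooth muscle basement membrane, had the largest negative changes of the type IV chains in glia-, neuron- and mesenchyme-primed cells, and none passed. It measured 3.09, 2.73, 2.88 and 2.65 on glia-primed arrays, 3.07, 2.69, 1.89 and 2.99 on neuron-primed arrays and 4.49, 2.63, 2.94 and 2.38 on mesenchyme-primed arrays, against 5.65, 3.00, 3.66 and 3.52 on unprimed arrays. The groups overlap, and NCSCs replicate 1 and Mesenchymal replicate 1 are the high arrays. The log2 changes were -1.12, -1.29 and -0.84 (SE 0.53, limma adjusted p = 0.511, 0.425 and 0.754), and a second probe set gave -1.62, -1.60 and -1.34. Without NCSCs replicate 1 the neuron-primed change was -0.73. Its X-linked neighbour Col4a6 differed by -0.73, -0.54 and 0.30. Col4a3 and Col4a4, chains of the mature kidney filter, differed by at most 0.27 in size and lay at or below 3.13 on every array, though another Col4a4 probe set gave 0.57 in glia-primed cells.

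Among the 20 other collagens, Col18a1 passed in neuron-primed cells. It encodes a basement membrane multiplexin whose end fragment is endostatin. It measured 6.76, 6.52, 5.95 and 7.25 on neuron-primed arrays, against 4.75, 4.70, 4.94 and 5.75 on unprimed arrays. All 4 neuron-primed arrays lay above all unprimed ones, and above the glia-primed (4.94 to 5.41) and mesenchyme-primed arrays (4.90 to 5.91) too. The log2 change was 1.58 (SE 0.30, 3.0-fold, limma adjusted p = 0.0327), against 0.12 in glia- and 0.31 in mesenchyme-primed cells. The difference of glia- from neuron-primed cells was -1.46 (SE 0.30, limma adjusted p = 0.207) and that of neuron- from mesenchyme-primed cells was 1.28 (limma adjusted p = 0.119), so neuron-primed cells were not shown to differ from the other primed cells. The second Col18a1 probe set, of similar mean, gave 0.84, 0.92 and 0.02 in glia-, neuron- and mesenchyme-primed cells. With the probe sets averaged the change in neuron-primed cells was 1.25 and did not pass (limma adjusted p = 0.0786). The call was also lost without NCSCs replicate 1, 2 or 3 or Autonomic replicate 2 or 4 (adjusted p up to 0.108). Which of the 2 transcript starts shown above each probe set reports was not tested.

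Col7a1, the chain of the anchoring fibrils of skin, measured 5.13, 4.53, 5.10 and 6.05 on glia-primed arrays and 4.10, 7.16, 5.0 and 6.52 on neuron-primed arrays, against 4.15, 3.36, 4.50 and 3.69 on unprimed arrays. Glia-primed arrays lay above the unprimed ones, and neuron-primed replicate 1 fell among them. The log2 changes were 1.28 (SE 0.55, limma adjusted p = 0.447) and 1.77 (limma adjusted p = 0.227), and 0.21 in mesenchyme-primed cells. Without Autonomic replicate 1 the neuron-primed change was 2.30 and passed (limma adjusted p = 0.0321). Here too the array left out was the lowest of its group for this gene, so that p-value is too small. Col16a1, a FACIT chain, measured 3.49, 4.29, 4.15 and 3.64 on glia-primed arrays, against 3.07, 3.23, 3.07 and 2.24 on unprimed arrays. These groups did not overlap (log2 change 0.99, SE 0.29, limma adjusted p = 0.205). Col17a1, a transmembrane collagen of hemidesmosomes, differed by -0.51, -0.69 and -0.70 in glia-, neuron- and mesenchyme-primed cells, over a dim unprimed range of 1.73 to 3.23 (limma adjusted p = 0.585, 0.408 and 0.55).

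Col8a1, a short-chain collagen of vessel walls, measured 3.95, 3.25, 5.98 and 3.38 on mesenchyme-primed arrays, against 3.08, 2.96, 3.20 and 2.97 on unprimed arrays. The groups did not overlap, and Mesenchymal replicate 3 set most of the difference (log2 change 1.09, SE 0.46, limma adjusted p = 0.6), which was 0.48 without it. Other, dimmer Col8a1 probe sets gave 1.19 and 1.90 in mesenchyme-primed cells. Col10a1, the collagen of hypertrophic cartilage, measured 3.11, 3.12, 2.82 and 3.39 on neuron-primed arrays, against 2.78, 2.59, 2.61 and 2.42 on unprimed ones (log2 change 0.51, limma adjusted p = 0.366). Type VI chains, the beaded-filament collagens of connective tissue, were dim. Col6a1 was 1.71 to 3.00 on all arrays but Mesenchymal replicate 3, at 4.00, and Col6a2 was highest there too, at 4.71. Col9a1, a FACIT chain of cartilage, was 1.53 to 3.64 except on NCSCs replicate 3, at 5.40. Its largest change, -0.98 in glia-primed cells (limma adjusted p = 0.698), was -0.15 without that array, and a second probe set gave 0.12. Col13a1, Col15a1, Col23a1 and Col25a1 differed by at most 0.24 in size from unprimed cells on the probe set used. Dimmer probe sets gave 1.38 in mesenchyme- and -0.54 in neuron-primed cells for Col25a1, and 0.86 in mesenchyme-primed cells for Col23a1. Col9a2, Col12a1, Col14a1, Col19a1, Col6a3 and Col8a2 differed by at most 0.33, and Col9a3 by at most 0.49, again on the probe set used. Here too the probe sets disagreed. For Col12a1, a FACIT chain of tendon and ligament, another gave 1.28 and 1.05 in glia- and neuron-primed cells and a further one 0.72 and 0.81. For Col14a1, a FACIT chain of skin and tendon, other probe sets gave 1.00 and 0.86 in neuron-primed cells. None of these extra probe sets was tested.

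**Figure D3:**
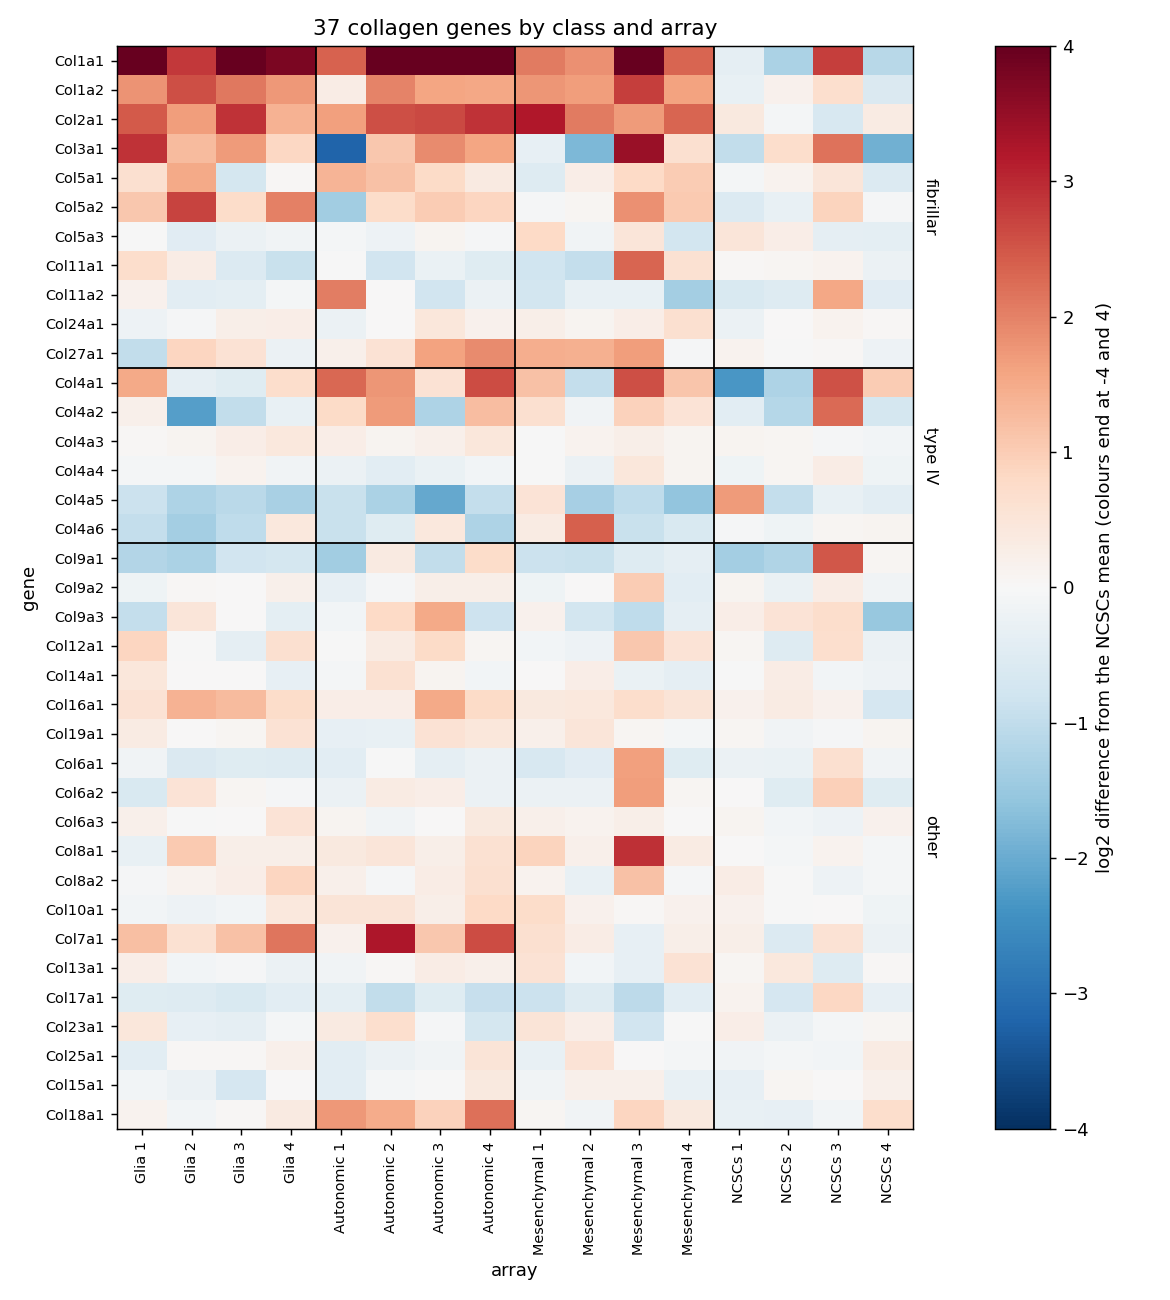
Log2 difference of each of 37 collagen genes (rows, by class) from its unprimed mean on each of 16 arrays (columns, by group), with colours ending at -4 and 4. The first 3 rows, Col1a1, Col1a2 and Col2a1, are above the unprimed mean on all 12 primed arrays, and NCSCs replicate 3 and Mesenchymal replicate 3 are the highest of their group for 20 genes each.

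Counted over the family, 2 of 37 collagens were called higher in glia-primed cells (Col1a2 and Col2a1), where 0.187% of all genes were called higher. In neuron-primed cells 2 were called higher (Col2a1 and Col18a1), against 0.132% of all genes. In mesenchyme-primed cells 0 were called by limma and 6 had an unadjusted p under 0.05, against 0.022% and 7.7% of all genes. In the mean of the primed groups 2 were called higher (Col1a2 and Col2a1), against 0.121%. All primed arrays lay above all unprimed ones for 5 of 37 collagens in glia-primed cells (13.5%, against 3.02% of all genes), for 5 in neuron-primed (13.5%, against 2.29%) and for 4 in mesenchyme-primed cells (10.8%, against 2.41%). In no collagen did they all lie below. The share of all genes that did is not given here, so no direction of the family is read from this. Col2a1 was the only collagen with all 12 primed arrays above all unprimed ones (2.7% of the family, against 0.176% of all genes). Median changes over the family were 0.05, 0.25 and 0.23. With NCSCs replicate 3 and Mesenchymal replicate 3 both left out, the calls were Col1a1 and Col1a2 in glia-primed cells and Col1a1 and Col2a1 in neuron-primed cells. Col2a1 in glia-primed cells (log2 change 1.88, limma adjusted p = 0.0972) and Col18a1 in neuron-primed cells (1.55, limma adjusted p = 0.0741) then did not pass. The 3 comparisons share the unprimed arrays and are not independent of each other.

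Between primed groups no collagen passed. Limma called 0 of 37 between glia- and neuron-primed cells, with 4 at an unadjusted p under 0.05, against 0.011% and 6.24% of all genes. It called 0 between glia- and mesenchyme-primed cells, with 1 at an unadjusted p under 0.05, against 0.225% and 7.05% of all genes. It called 0 between neuron- and mesenchyme-primed cells, with 2 at an unadjusted p under 0.05, against 0.346% and 8.23% of all genes. Col18a1 was the only collagen whose arrays did not overlap between primed groups, lower in glia- than in neuron-primed cells (1 of 37, 2.7%, against 1.6% of all genes) and higher in neuron- than in mesenchyme-primed cells (2.7%, against 2.09%). Col1a1 differed between primed groups by up to 1.03, with an SE of 1.09, so a difference of that size was not detectable here.

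**Figure D4:**
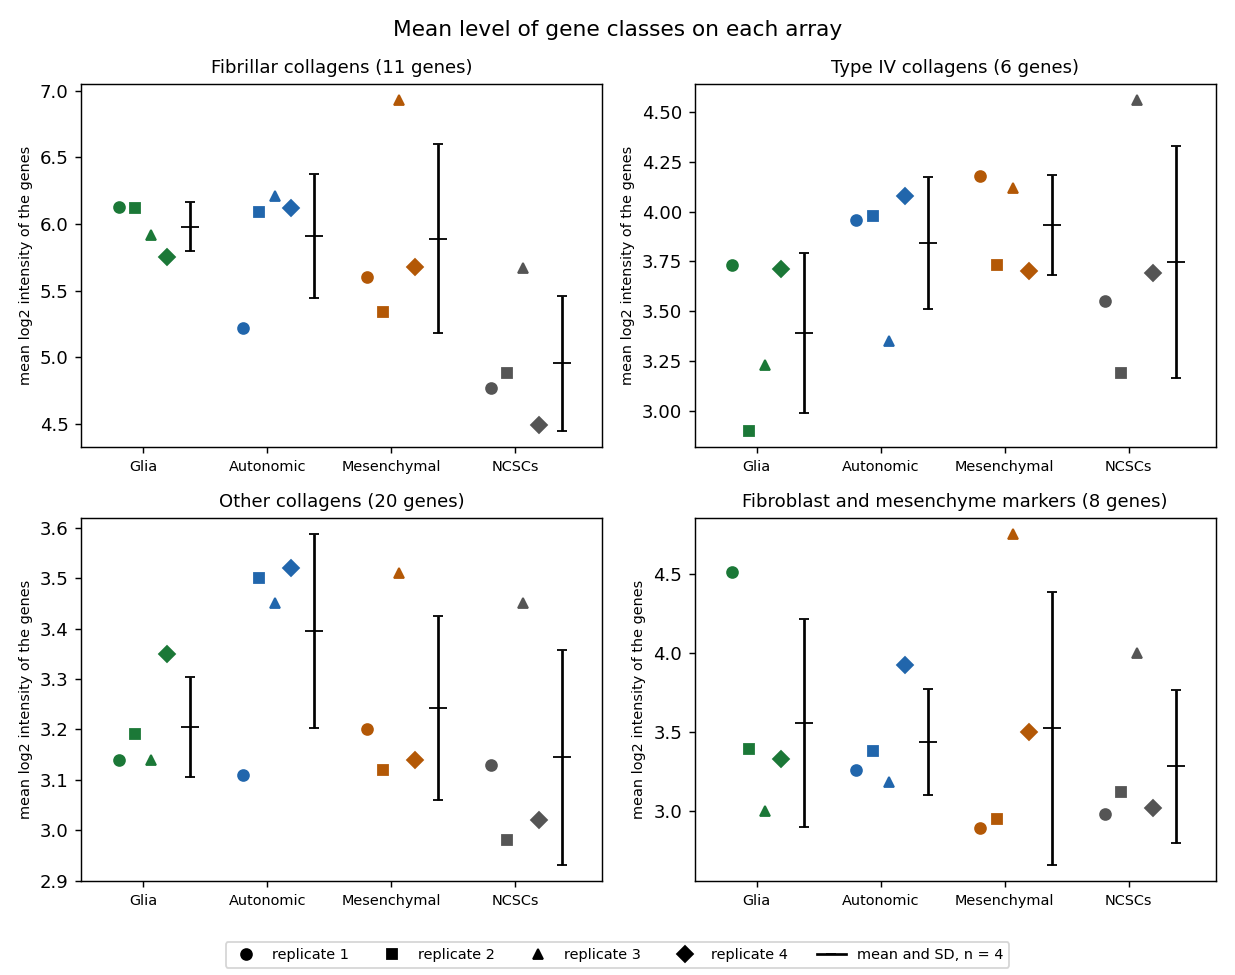
Mean log2 intensity (vertical axes, not starting at 0) of fibrillar, type IV and other collagens and of fibroblast and mesenchyme markers on each array, by group, with the mean and SD of 4 arrays. Fibrillar means were 5.75 to 6.13 on glia-primed arrays, against 4.49 to 5.67 on unprimed ones, and Mesenchymal replicate 3 and NCSCs replicate 3 are the highest of their groups in the fibrillar, other and marker panels.

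Several markers of other cell types were high on single arrays. The 8 fibroblast and mesenchyme markers (Pdgfra, Pdgfrb, Twist1, Prrx1, Dcn, Lum, Thy1 and Dpt) averaged 3.00 to 4.51 on glia-, 3.18 to 3.92 on neuron- and 2.89 to 4.75 on mesenchyme-primed arrays, against 2.98 to 4.00 on unprimed arrays. None of the 8 was called by limma in any of the 7 comparisons, and none had an unadjusted p under 0.05. In the comparisons between single groups 6.24% to 9.91% of all genes were under that value, and calls were rarer still. Finding none among 8 genes therefore shows little. Mesenchymal replicate 3 was the highest of its group for 6 of the 8, but not for Twist1 (2.98) or Pdgfrb (4.68). There, Thy1 was 7.82, against 2.64 to 2.91 on the rest of its group, and Prrx1 was 7.30, against 2.16 to 3.77. NCSCs replicate 3 was also the highest of its group for 6 of the 8, but not for Dcn (2.77) or Thy1, where it was the lowest (2.41). There, Twist1 was 5.32, against 2.66 to 3.19, and Pdgfra was 7.17, against 4.99 to 5.42. Other high values were Prrx1 at 6.96 on Autonomic replicate 4, and Dcn at 5.81 and Twist1 at 5.18 on Glia replicate 1. Dpt was below 2.50 on every array and Lum was above 2.20 only on Glia replicate 1 and NCSCs replicate 3. Their part in the collagen levels of these arrays was not tested. Cartilage and bone markers (8 of 10 measured) averaged 3.00 to 3.32 on glia-, 3.02 to 3.60 on neuron- and 3.25 to 3.66 on mesenchyme-primed arrays, against 3.43 to 3.55 on unprimed arrays. The glia-primed means lay below the unprimed range and the other primed groups overlapped it, and the part of these markers in the Col2a1 level was not tested. Sox9, an activator of Col2a1 in cartilage, differed by -1.14, -1.04 and -0.57 (limma adjusted p = 0.326, 0.398 and 0.792). Endothelial markers averaged 1.81 to 2.60 over all arrays, below the array medians. Blood markers, 5 of them measured, averaged 2.42 to 2.99 on glia- and 2.68 to 4.33 on neuron-primed arrays. They averaged 2.74 to 4.43 on mesenchyme-primed and 2.57 to 4.52 on unprimed arrays. Hba-x, a globin gene among them, was 2.01 to 2.50 on glia-primed arrays but 2.65 to 7.21 on unprimed ones. It was also 7.45 on Autonomic replicate 4, and 6.59 and 6.13 on Mesenchymal replicates 1 and 2. Hbb-y, another globin gene, was 7.87 on NCSCs replicate 3, and 6.06, 7.52 and 7.40 on those primed arrays in the same order. Ptprc, Csf1r and Cd68, the rest of the 5, did not exceed 4.90 on any array (Cd68 on Glia replicate 2). Epithelial markers averaged 2.81 to 3.90 on glia- and 3.19 to 4.16 on neuron-primed arrays. They averaged 2.94 to 3.66 on mesenchyme-primed and 3.42 to 4.11 on unprimed arrays. On Autonomic replicate 2, Krt18 was 8.85 and Krt8 was 7.01, the highest values of both genes. Epcam, Cdh1 and Krt5 were each lowest of their group there. The part of these markers in the collagen levels was not tested.

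Collagen chains need a set of partners, of which 54 were measured. They comprise enzymes that modify proline and lysine, chaperones and export factors, proteases that trim procollagen, crosslinking oxidases, receptors and fibril-binding proteins. Limma called 0 of the 54 in any of the 7 comparisons, with 12, 13 and 9 at an unadjusted p under 0.05 in glia-, neuron- and mesenchyme-primed cells. Those are 22.2%, 24.1% and 16.7% of the partners, against 9.91%, 9.8% and 7.7% of all genes. Calls by limma were rare over all genes too, at 0.022% in mesenchyme-primed cells and 0.011% to 0.346% between primed groups. Their median changes were 0.13, 0.09 and 0.14. Examples with larger values were chosen after these were seen. Postn, a matricellular protein that binds type I collagen, measured 8.59, 9.24, 9.72 and 9.35 on glia-primed arrays, against 6.54, 5.97, 4.45 and 5.41 on unprimed arrays. The groups did not overlap (log2 change 3.63, SE 0.79, limma adjusted p = 0.062). Thbs1, a matrix glycoprotein that activates latent TGF-beta, measured 7.40, 6.20, 6.24 and 6.45 on glia-primed arrays, against 3.69, 3.15, 5.07 and 4.09 on unprimed arrays (log2 change 2.57, SE 0.57, limma adjusted p = 0.0676). Neuron-primed changes of Postn and Thbs1 were 2.60 and 2.53, and mesenchyme-primed changes were 2.31 and 1.20.

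The 12 fibril partners averaged 4.63 to 5.39 on glia-, 4.17 to 5.06 on neuron- and 4.34 to 5.54 on mesenchyme-primed arrays, against 4.02 to 4.26 on unprimed arrays. Only Autonomic replicate 1, at 4.17, fell within the unprimed range. Postn and Thbs1 are 2 of the 12 and had the largest changes in glia- and neuron-primed cells (Postn and Bgn in mesenchyme-primed cells), while the medians over the 12 were 0.46, 0.21 and 0.27, with 8, 9 and 8 positive. Mesenchymal replicate 3 set most of the Bgn change, at 10.23, against 4.33 to 5.90 on the rest of its group. Serpinh1, the collagen chaperone HSP47, differed by 0.37, 0.23 and 0.14. P4ha1, the catalytic subunit of a prolyl hydroxylase, measured 8.54, 6.75, 9.08 and 9.42 on mesenchyme-primed arrays, against 5.92, 7.02, 6.72 and 6.94 on unprimed arrays, and 3 of those 4 lay above the unprimed range. Its difference of neuron- from mesenchyme-primed cells was -3.05 (limma adjusted p = 0.0617) and that of glia- from mesenchyme-primed cells was -2.81 (limma adjusted p = 0.0999). Tmem38b, an endoplasmic reticulum cation channel needed for collagen export, differed by -2.10 in neuron-primed (limma adjusted p = 0.0581) and -2.01 in mesenchyme-primed cells (limma adjusted p = 0.193). Of the 4 crosslinking oxidases, Lox was 7.90 on Mesenchymal replicate 3, against 1.86 to 2.32 on the rest of its group, and 5.33 on NCSCs replicate 2, against 1.53 to 2.14. Loxl4, another of them, measured 4.61, 5.16, 4.60 and 5.56 on neuron-primed arrays, against 3.80, 4.18, 3.79 and 3.81 on unprimed arrays, and these did not overlap. Ddr1, a receptor tyrosine kinase for collagen, differed by 0.95, 1.22 and 0.99 (limma adjusted p of 0.204 in neuron-primed cells).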

How the data were processed

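Total RNA was labelled and hybridised to 16 Affymetrix arrays, 4 in each of 4 groups. The deposited values are linear intensities per probe set, summarised and normalised with RMA per the submitters' processing notes; no version or annotation build is given in the sources used here. The values ran from 1.487 to 31600 and were turned to log2 with no offset. Of 45101 probe sets, 34958 had 1 gene symbol, 932 had several and 9211 had none; symbols came from the platform annotation and were updated through Entrez IDs for 99.4% of the first. The single-symbol probe set with the highest mean stood for each of 18194 genes, 37 of them collagens.

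Limma 3.58.1 in R 4.3.3 fitted the 4 group means over all 16 arrays, with Benjamini-Hochberg adjustment across the 18194 genes and calls at an adjusted p under 0.05. The fit was tested on simulated data. Arrays give no counts, so their number limits the precision. Groups came from the titles and the cell type label. The named collagens are those called in any comparison and the 2 of each class with the largest change in primed cells (16 genes); others are examples chosen after their values were seen. The members and the lists of partners and markers were chosen with earlier results of these data known. Arrays with the same number in their titles did not deviate together (correlations of -0.067 to 0.064 over 24 pairs), so the numbers were not used as pairs. Alternatives covered scaling, the log offset, the filter on dim genes, the choice of probe set, the samples in the fit, array weights, the variance prior, a replicate block and each array left out. Fits with the Gapdh ratio or the Xist level as covariate, and without both NCSCs replicate 3 and Mesenchymal replicate 3, were added after the data were seen. Promoter windows are RefSeq's for GRCm38.p6. Figures were drawn with matplotlib 3.10.9.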

Additional observations from a re-analysis of the deposited data

Results flagged for a closer look

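Among the collagens chosen by the naming rule, single arrays stood far from the rest of their group for several genes, by a gap to the nearest array that exceeded Dixon's 95% critical value for 4 samples, as a share of the group's range. On Mesenchymal replicate 3 this held for Col1a1 at 11.56, Col1a2 at 11.45 and Col6a1 at 4.00 (log2 intensity), all on the high side. NCSCs replicate 3 was high for Col6a1, at 3.00. NCSCs replicate 4 was low for Col16a1, at 2.24, and Glia replicate 4 was high for Col10a1, at 3.01. Of the other collagens, Autonomic replicate 1 was low for Col3a1 (2.73) and Col5a2 (3.11), NCSCs replicate 3 was high for Col11a2 (4.10), Mesenchymal replicate 4 was low for Col27a1 (4.88), and NCSCs replicate 4 was high for Col25a1 (4.63). Chance flags about 1 in 20 groups, and over all 37 collagens 11 of 148 groups were past the value.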

How the results depend on the processing

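The collagens called in glia-primed cells, 2 as reported, numbered 1 with a replicate block, 1 with only the groups compared in the fit, 1 with the Xist level as covariate, 0 with the Gapdh ratio as covariate and 0 to 2 with 1 array left out. Col2a1 was the gene lost in the first 3 of these (limma adjusted p = 0.0801 with the block). In neuron-primed cells, 2 as reported, they numbered 1 with all probe sets averaged, 1 with a trended and robust variance prior, 0 with only the groups compared, 0 with the Gapdh ratio and 0 to 4 with 1 array left out (4 without Autonomic replicate 1, 0 without Autonomic replicate 4). Col18a1 was the gene lost with averaged probe sets and with the other prior. In mesenchyme-primed cells, 0 as reported, 1 passed with array weights, and 0 to 0 with 1 array left out. For the mean of primed groups, 2 as reported, 0 passed with the Gapdh ratio and 1 to 3 with 1 array left out. Between primed groups 0 passed by limma under every alternative run. The replicate block changed no other count of collagens called, and the labels do not say whether the numbers pair the samples.

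Counts over all genes moved too: from 93 in glia-primed cells to 52 with the block, 60 with only the groups compared, 30 with the Gapdh ratio, 26 with Xist and 25 without NCSCs replicate 4, and from 79 in neuron-primed cells to 17 with only the groups compared, 33 with the Gapdh ratio and 237 without Autonomic replicate 1. Col1a2 in the mean of primed groups lost its call without NCSCs replicate 1, 2 or 4 (adjusted p up to 0.126). Signs were followed for every called change and, in each other named gene, for its largest change from unprimed cells. Among these, changes turned sign for Col6a1 in glia-primed cells with Xist as covariate (0.062, against -0.44) and for Col6a2 in mesenchyme-primed cells without Mesenchymal replicate 3 (-0.13, against 0.32, with -0.13 to 0.64 over all single arrays left out). Small changes outside this set turned sign too, such as Col11a1 in glia-primed cells with Xist as covariate (0.43, against -0.11). Centring on housekeeping genes moved the median of all genes by 0.20 in glia-, 0.24 in neuron- and 0.02 in mesenchyme-primed cells. Fewer samples enter the fits of only the groups compared and of arrays left out; elsewhere the cause was not tested. Signal over background limits the dim collagens.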
